A study of Mus musculus with 12 samples.

Results

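Soleus and tibialis anterior (TA) were compared within knockout (KO) mice, using the 6 arrays of 12 whose titles name KO muscle: 3 of KO soleus and 3 of KO TA. The series concerns mice that lack hexose-6-phosphate dehydrogenase, encoded by H6pd, at 4 weeks of age. Total RNA from each muscle was hybridised to 1 Affymetrix array, and the other 6 arrays hold the same muscles of wild type (WT) mice. The mice had been weaned, and the design text describes their muscle as free of overt myopathy on histology. The allele, the strain, the sex and the part of H6pd removed are not given in the labels used here. The 3 arrays of a group are called biological replicates, but no label states that a soleus and a TA array sharing a number are from 1 mouse. The p-values therefore measure the spread between these arrays.

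Soleus is a postural muscle rich in slow, oxidative fibres, whereas TA is a fast muscle rich in glycolytic fibres. Slow and fast fibres use different gene copies for myosin, troponin, the calcium pump and other contractile proteins, and these isoforms define the identity of a muscle. H6pd works in the lumen of the endoplasmic reticulum (ER), the compartment that folds secreted and membrane proteins, where it oxidises glucose-6-phosphate and makes NADPH. That NADPH feeds the steroid reductase Hsd11b1. Misfolded proteins in the ER activate the unfolded protein response, which raises ER chaperones, and the integrated stress response, which acts through the transcription factor Atf4. The comparison asks which muscle differences exist in KO mice, in muscle identity and in these stress genes.

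All values are log2 signals after quantile normalisation, differences are KO soleus minus KO TA on that log2 scale with the standard error (SE) of the fit, and values are listed in the order of replicates 1, 2 and 3. A gene was called when limma's adjusted p was under 0.05 over the 13009 genes tested. A group mean under 4 lay near the floor of the table, since 94.1% of the 34 probe sets of genes of other tissues had means under that mark, and a difference from such a group is given as a lower bound. In whole-muscle RNA, fewer cells of a type and less RNA per cell cannot be told apart. The array number bears on many values: the second principal component of the KO arrays, with 24.8% of the variance, set both arrays numbered 3 (-37.1 and -27.4) apart from the other 4 (12.6 to 18.0), while the first, with 56.1%, separated the muscles.

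The targeted gene was measured first. H6pd read 4.19, 4.41 and 6.10 in KO soleus and 6.89, 6.49 and 7.49 in KO TA. All 3 soleus values lay below the TA values, but the difference did not pass the test (-2.05, SE 0.62, adjusted p = 0.0714). It passed under 6 of 18 alternatives, with an adjusted p of 0.00724 with the replicate block within genotype and 0.0256 (difference -2.65) without KO soleus replicate 3, and the adjusted p ran from 0.00173 to 0.231. In WT, H6pd read 5.57, 6.12 and 7.11 in soleus and 6.37, 6.26 and 7.92 in TA. The WT soleus range overlapped both KO groups, and the WT TA range overlapped that of KO TA and not that of KO soleus. A single probe set measured the gene, and whether it lies in the removed part is not known, so H6pd does not check the KO labels. The 4 markers of muscle identity matched the muscle named in the titles. Myh7 and Tnni1, the myosin heavy chain and troponin I of slow fibres, were higher on every KO soleus array than on any KO TA array. Myh4 and Actn3, the fastest myosin heavy chain and an alpha-actinin of fast fibres, were lower on every KO soleus array.

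Of the 13009 genes, 1165 were called between KO soleus and KO TA (8.96%), with 565 higher in soleus (4.34%) and 600 lower (4.61%). These shares are the background for every list count below. On the table as deposited the split was 681 higher and 458 lower, and after median centring 654 and 417, so the balance of the directions depends on the scaling. The difference was more than 2-fold for 567 of the called genes (4.36% of all tested). Without overlap between the 3 soleus and 3 TA values were 3925 genes (30.2%). The median difference over all genes was -0.02, and 5577 genes (42.9%) lay above 0. With the array number within each genotype as a block the count was 2000 (982 higher, 1018 lower), of which 1098 were among the 1165. A single array also moved it: it was 585 without KO soleus replicate 1, 610 without KO TA replicate 2, and 758 without KO TA replicate 3. Fitted on the 6 KO arrays alone, 631 genes were called.

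The same muscles differed in WT by a similar number of genes. In WT, 1392 of 13009 genes were called (10.7%), 578 higher (4.44%) and 814 lower (6.26%) in soleus. Both genotypes called 640 genes, all in the same direction, which is 54.9% of the KO calls and 46% of the WT calls. Of the 1165 genes called in KO, 1120 had the same sign in WT (96.1%). The KO muscle difference minus the WT muscle difference, termed the genotype test below, was past the threshold for 5 genes (0.0384%), positive for 3 (0.0231%) and negative for 2 (0.0154%), against 743 at an unadjusted p under 0.05 (5.71%). The median SE of that contrast was 0.25, against 0.18 for the KO contrast. A gene called in 1 genotype alone is therefore not shown to differ between genotypes unless it passed that test.

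**Figure D1:**
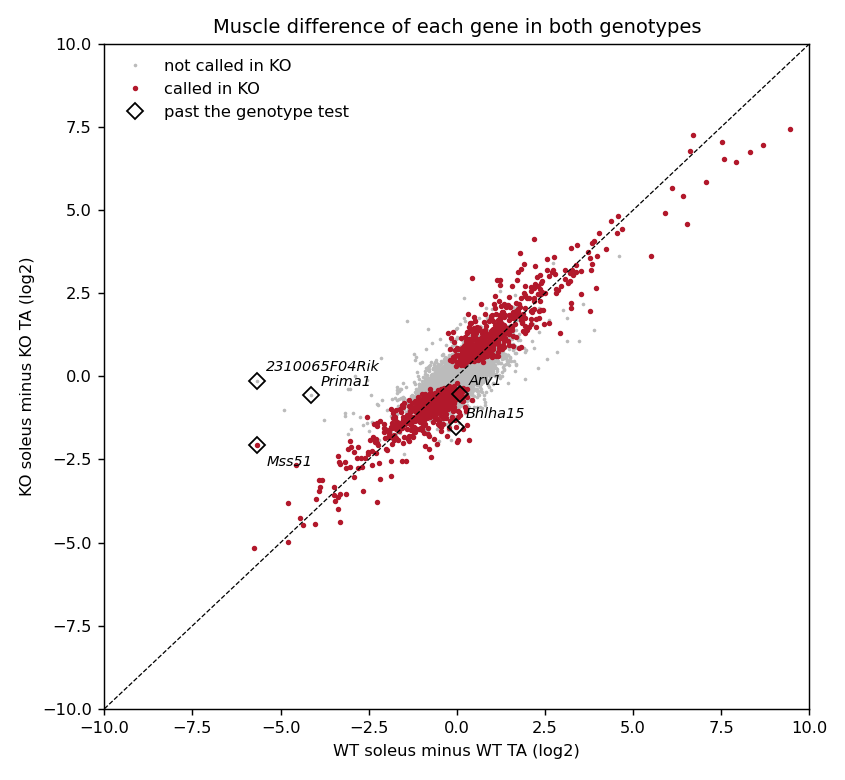
Each point is 1 of 13009 genes, with the WT soleus minus TA difference on the horizontal axis and the KO difference on the vertical axis, both log2. Red points are the 1165 genes called in KO, the dashed line marks equal differences, and diamonds mark the 5 genes past the genotype test, of which 2310065F04Rik, Prima1 and Mss51 lie to the left of the line.

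The slow contractile programme gave the largest differences. Of 18 genes in the slow fibre list, all tested, 16 were called higher in KO soleus and 0 lower. The median difference of the list was 3.47, against -0.02 over all genes. The list is not confined to slow fibres: Myh2, the type IIa fast myosin heavy chain, and Actn2 were among the 16. Myh7 read 15.54, 15.27 and 15.23 in KO soleus and 8.04, 7.44 and 8.21 in KO TA. Its difference of 7.45 (SE 1.09, adjusted p = 0.00291) was the largest among called genes without overlap, a 175-fold ratio. Tnni1 read 14.80, 14.71 and 14.38 in soleus against 7.63, 7.63 and 8.42 in TA (6.74, SE 0.49, adjusted p = 4.89e-05). The groups of both genes lay far apart, with less than 1 log2 unit within any group.

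The other thin and thick filament genes of slow fibres followed. Tnnt1 and Tnnc1, which encode the slow troponin T and the slow troponin C, were higher in KO soleus by 6.54 (SE 0.63) and 6.45 (SE 0.38). Tpm3, the slow tropomyosin, was higher by 7.05 (SE 0.34) on the probe set with the highest mean, while the 4 others of this gene gave 6.48, 1.85, 1.31 and 0.83. The cause of this spread was not tested. The ventricular and slow light chains Myl2 and Myl3 differed by 5.86 (SE 0.72) and 5.43 (SE 0.33). In KO TA replicate 1 was highest for both, with Myl2 at 10.77, 9.55 and 9.19 and Myl3 at 11.32, 10.36 and 9.69, and neither range reached soleus. Myom3, an M-band protein, read 11.26, 11.26 and 11.42 in soleus and 7.35, 6.58 and 6.22 in TA (4.60, SE 0.23, adjusted p = 4.76e-06). Myoz2, a Z-disc calcineurin binder, was higher by 3.57 (SE 0.14), and Actn2, the alpha-actinin of all fibres, by 0.73 (SE 0.13). The 2 list members that were not called were Fhl1 (0.51, adjusted p = 0.0789) and Myl6b (-0.06, adjusted p = 0.407). Both KO means of Myl6b lay near the floor, so its levels in the muscles cannot be compared.

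The KO difference was smaller than the WT difference for 11 of the 12 slow members of the isoform pairs. For Myh7 it was 7.45 in KO and 9.46 in WT, for Tnni1 6.74 and 8.31, and for Myom3 4.60 and 6.55. WT TA replicate 3 was the low array for several of them: WT TA read 7.11, 8.25 and 2.67 for Myh7 and 7.04, 6.83 and 4.86 for Tnni1. Without that array the WT difference was 7.79 for Myh7, 7.62 for Tnni1 and 6.52 for Myom3. The KO difference was then still smaller than the WT difference for 11 of the 12. None of the 12 passed the genotype test by limma, the smallest adjusted p being 0.188 for Myom3. In that test 6 of the 18 genes in the slow list had an unadjusted p under 0.05, against 5.71% of all genes. All 6 had the smaller difference in KO.

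Fast contractile genes divided into those that differed and those at similar levels in both muscles. Of 18 fast fibre genes, 9 were called lower and 1 higher in KO soleus, with a median of -0.92. Myh4 read 12.01, 13.27 and 9.44 in KO soleus and 15.91, 15.94 and 15.69 in KO TA. The soleus arrays spread over more than 3 log2 units, yet all lay below TA (-4.27, SE 0.91, adjusted p = 0.0183). The TA values lay at the upper end of the scale, with 15.91 on all 3 WT TA arrays, and a second probe set gave -6.41 (adjusted p = 0.0296). Actn3 behaved alike, at 11.70, 10.49 and 8.0 in soleus and 15.02, 14.11 and 14.35 in TA (-4.43, SE 0.85, adjusted p = 0.0109). KO soleus replicate 3 gave the lowest value of both. Mybpc2, the fast myosin binding protein C, was lower by -3.99 (SE 0.42), and Mylk4, a myosin light chain kinase family member, read 9.59, 9.43 and 9.17 against 12.97, 13.05 and 13.46 (-3.76, SE 0.33, adjusted p = 0.000173). Myoz1 and Myom2, the fast partners of Myoz2 and Myom3, were lower by -1.87 (SE 0.21) and -0.94 (SE 0.20). The exception was Smtnl1, a smoothelin-like protein, at 12.54, 12.52 and 12.82 in soleus and 9.92, 10.56 and 11.48 in TA (1.97, SE 0.39, adjusted p = 0.0135). Myh4 was not called without KO TA replicate 1 or KO TA replicate 2, Smtnl1 without KO TA replicate 2, and Myom2 without KO soleus replicate 1 or KO TA replicate 2 or 3. Without KO TA replicate 2 the list gave 0 calls higher and 6 lower. Fitted on the KO arrays alone, Myh4 (adjusted p = 0.0653), Actn3 (0.0578), Myom2 (0.0522) and Smtnl1 (0.0504) missed the threshold.

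The fast troponins Tnni2, Tnnt3 and Tnnc2, the fast light chains Mylpf and Myl1 and the tropomyosin Tpm1 did not pass the test, with differences from -0.20 to -0.07. Their 6 soleus means all lay above 15, next to the highest value of the table, 16.36. Dimmer probe sets gave -0.20 and -0.65 for Tnni2, and -0.78, 0.38 and -0.55 for Tpm1, none of them called. How far the upper end of the scale narrows such differences was not tested. Over the 12 isoform pairs, all 12 slow members were called higher in KO soleus and 6 of their 12 fast partners were called lower. Several of these genes have close relatives, among them the clustered myosin heavy chains, and signal shared between relatives could not be separated.

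**Figure D2:**
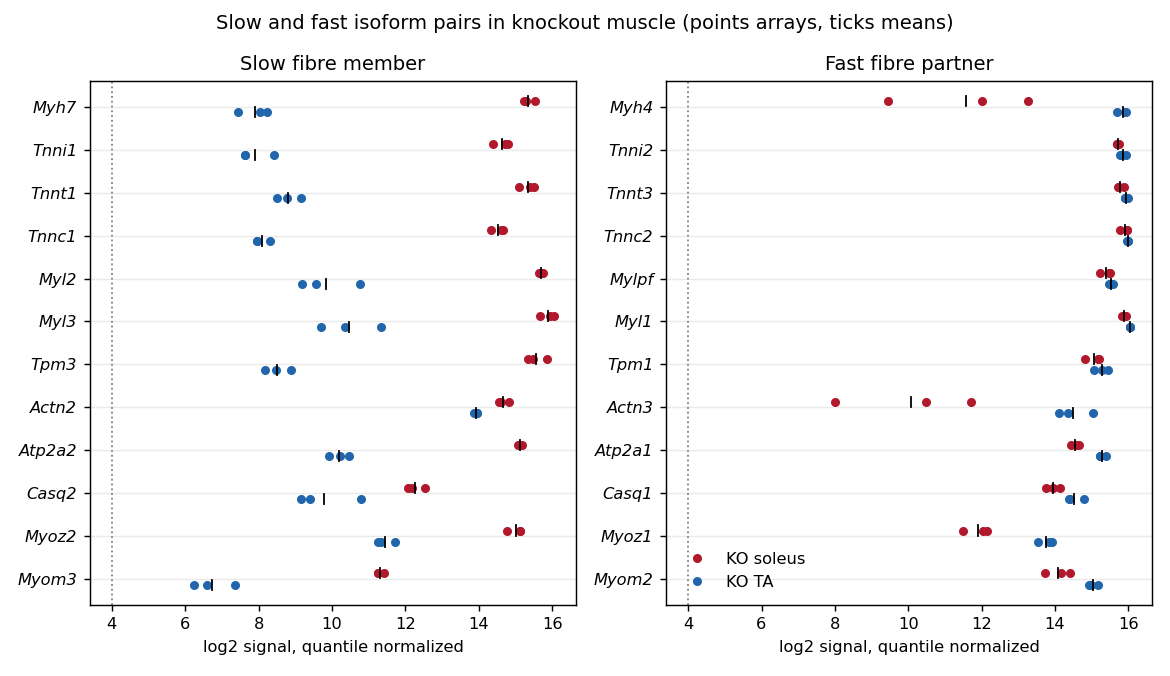
The log2 signal of each slow fibre gene (left) and its fast partner in the same row (right) is shown for the 3 KO soleus arrays (red) and the 3 KO TA arrays (blue), with black ticks at group means and a dotted line at 4, the mark for the floor. Myh7, Tnni1 and the other slow members separate the muscles, whereas Tnni2, Tnnt3, Tnnc2, Mylpf, Myl1 and Tpm1 sit near 15 to 16 in both.

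A sequence feature linked to muscle genes was looked up in the promoters of these lists. MEF2 is a family of transcription factors that binds an AT-rich element in many muscle promoters. The window searched was 300 bases, from 250 before to 50 after each start site in RefSeq (GRCm38.p6), on both strands. The MEF2 element was present for 3 of the 11 fast genes with an entry (Myh1, Myh4 and Mylk4), for 2 of 18 slow genes (Myom3 and Myoz2) and for 2.16% of all 27025 genes. The element can overlap a TATA box, and a match is a description of the letters only. The Mylk4 promoter is shown because Mylk4 was among the 12 lowest genes and its element stands alone upstream. The 250 bases lie at chr13:32783965-32784214 on the minus strand, with the MEF2 match in capitals, starting at position -103 from the start site.
Mylk4: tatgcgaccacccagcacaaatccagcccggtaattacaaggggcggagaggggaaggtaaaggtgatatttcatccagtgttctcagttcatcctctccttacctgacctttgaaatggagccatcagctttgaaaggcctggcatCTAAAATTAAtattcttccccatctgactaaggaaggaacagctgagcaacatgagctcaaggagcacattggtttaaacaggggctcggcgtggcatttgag

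Outside the contractile lists, Tecrl, Sln, Lgi1 and Bdh1 were among the genes highest in KO soleus relative to KO TA. Sln, sarcolipin, which restrains the calcium pump, read 11.82, 11.27 and 12.06 in KO soleus and 4.38, 2.67 and 7.21 in KO TA. The TA arrays varied by more than 4 log2 units, and the difference was 6.96 (SE 0.98, adjusted p = 0.00239). Bdh1, which oxidises a ketone body in mitochondria, read 9.07, 11.41 and 11.94 in soleus and 3.28, 5.02 and 7.13 in TA (5.66, SE 1.26, adjusted p = 0.0221), and was not called without KO soleus replicate 2 or 3 or KO TA replicate 1 or 2. Tecrl, an ER reductase-like protein, read 10.53, 10.71 and 8.96 in soleus and lay at the floor in TA (2.79 to 2.81), at least 66.9-fold higher in soleus. Lgi1, a secreted protein known from nerve, was at 9.88, 9.83 and 9.41 in soleus and at the floor in TA (2.72 to 3.07), at least 52.2-fold higher.

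Kcnc4, Tspan8, Slc16a3, Tpbgl and Gpd1 were among the genes lowest in KO soleus relative to KO TA. Kcnc4, a voltage-gated potassium channel, read 6.23, 5.50 and 3.86 in KO soleus and 11.15, 10.36 and 9.57 in KO TA (-5.16, SE 0.55, adjusted p = 0.000463). Tspan8, a tetraspanin, differed by -4.97 (SE 0.32), and its 2 other probe sets, which were dim, gave -0.44 and -0.35 and were not called. Slc16a3, the lactate exporter of glycolytic fibres, read 7.35, 7.15 and 6.66 against 11.63, 11.68 and 11.02 (-4.39, SE 0.31, adjusted p = 4.89e-05). Gpd1, the cytosolic glycerol-3-phosphate dehydrogenase, was lower by -3.62 (SE 0.36) and Tpbgl by -3.70 (SE 0.39). Ybx2, a nucleic acid binding protein, lay at the floor in soleus (2.51 to 2.59) and at 5.77, 7.06 and 6.22 in TA, at least 5.09-fold lower in soleus. BC023105, likewise at the floor in soleus, read 7.25, 5.10 and 8.78 in TA (at least 8.23-fold lower), and of its 6 omissions of a KO array only that of KO TA replicate 2 left it called.

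Regulators of fibre type and myogenesis went both ways. Of 29 tested members of 32, 5 were called higher and 5 lower in KO soleus. Rcan1, a target and inhibitor of calcineurin, read 11.10, 11.10 and 12.14 in soleus and 7.97, 8.67 and 9.0 in TA (2.90, SE 0.36, adjusted p = 0.00116); its second probe set gave 2.88 without passing the test (adjusted p = 0.0967). Esrrg, a nuclear receptor of oxidative metabolism, was higher by 2.10 (SE 0.25), and Nfatc2, a calcineurin-driven factor, by 1.06 (SE 0.23). Their second, dimmer probe sets were not called, at 0.76 for Esrrg (adjusted p = 0.378) and 0.63 for Nfatc2 (adjusted p = 0.266). Myf5 was higher by 1.57 (SE 0.30) and Myod1 lower, at 6.19, 5.06 and 4.43 in soleus and 9.17, 8.70 and 6.77 in TA (-2.99, SE 0.72, adjusted p = 0.0303). Both are myogenic determination factors. Eya4, a transcriptional coactivator, was lower by -2.46 (SE 0.25), Maf by -1.81 (SE 0.21), and Sox6, a repressor of slow genes, by -1.53 (SE 0.26). The second probe set of Eya4, near the floor in KO soleus, was not called (adjusted p = 0.149). The call of Myod1 was lost without KO soleus replicate 2 or 3 or KO TA replicate 1 or 2, and that of Nfatc2 without KO soleus replicate 1 or 3 or KO TA replicate 2 or 3.

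Of 16 tested members of 23 in the limb position list, 1 was called higher and 2 lower in KO soleus (median -0.03), against a background of 8.96% in either direction. On the table as deposited the split was 2 higher and 1 lower. Tbx1, a T-box factor, read 6.40, 6.01 and 6.53 in KO soleus and 10.62, 10.78 and 10.98 in KO TA (-4.49, SE 0.41, adjusted p = 0.000226). Hoxd8 was higher in soleus by 1.83 (SE 0.26) and Hoxc10 lower by -0.87 (SE 0.21), the last without a call when any KO array except soleus replicate 3 was left out.

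Calcium handling split by isoform. Of 26 tested members of 29, 4 were called higher and 7 lower in KO soleus (median -0.33), against a background of 4.34% and 4.61%. The slow calcium pump Atp2a2 read 15.13, 15.06 and 15.16 in soleus and 9.92, 10.21 and 10.46 in TA (4.92, SE 0.23, adjusted p = 2.82e-06). Its fast counterpart Atp2a1 was lower by -0.73 (SE 0.11). Of the calsequestrins, calcium buffers of the sarcoplasmic reticulum, Casq2 was higher by 2.48 (SE 0.47) and Casq1 lower by -0.58 (SE 0.15), but Casq1 lost its call when any of the 6 KO arrays was left out. Pvalb, the soluble calcium buffer of fast fibres, read 13.38, 12.73 and 8.94 in soleus and 15.50, 15.10 and 15.08 in TA (-3.55, SE 0.93, adjusted p = 0.0427). KO soleus replicate 3 was again the lowest array. Pvalb held its call only without KO soleus replicate 1 or KO soleus replicate 3, and without the latter its difference was -2.17. Cacng1, a subunit of the calcium channel of the T-tubule, was lower by -2.19 (SE 0.27), and Camk2a by -2.46 (SE 0.57), the latter called only without KO soleus replicate 3 among the 6 omissions.

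Surface channels and pumps, and genes of the neuromuscular junction, formed separate lists. Of 15 tested members of 21 in the channel list, 1 was called higher and 4 lower in KO soleus. The sodium pump subunits diverged: Atp1b2 read 6.44, 6.08 and 5.34 in soleus against 9.87, 9.07 and 8.88 in TA (-3.32, SE 0.47, adjusted p = 0.00254), and Atp1b4 was higher by 1.24 (SE 0.29). Kcnc1, a potassium channel, was lower by -1.83 (SE 0.37), Slc8a3, a sodium-calcium exchanger, by -1.54 (SE 0.35), and Clcn1, the muscle chloride channel, by -1.29 (SE 0.33). The last 2 lost the call under every omission of a KO array except that of soleus replicate 3. Kcnc1 lost it without KO soleus replicate 1 or KO TA replicate 1, and Atp1b4 without KO soleus replicate 1 or 3 or KO TA replicate 1 or 2. Of 15 tested neuromuscular junction genes of 19, 0 were called higher and 2 lower, and on the table as deposited 1 and 2, with 7 of 15 above 0. Chrne, the adult acetylcholine receptor subunit, read 5.98, 6.10 and 6.05 in soleus and 7.60, 6.99 and 7.56 in TA (-1.34, SE 0.21, adjusted p = 0.00428). Ache, acetylcholinesterase, read 3.07, 3.32 and 4.09 against 5.63, 5.0 and 6.15, at least 1.59 log2 units lower since the soleus mean was near the floor.

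Glycolysis genes leaned towards TA. Of 21 tested members of 25, 11 were called lower in KO soleus and 1 higher, with a median of -0.71. Fbp2, muscle fructose-bisphosphatase, read 8.37, 8.89 and 7.80 in soleus and 11.03, 11.45 and 10.79 in TA (-2.74, SE 0.37, adjusted p = 0.00194), and pyruvate kinase Pkm was lower by -1.59 (SE 0.19). The 11 called genes ranged from -4.39 for Slc16a3 to -0.54 for Aldoa, aldolase A. Ldhb, the heart-type lactate dehydrogenase subunit, was the member that was higher, at 14.32, 14.23 and 14.91 against 11.61, 12.01 and 12.38 (2.49, SE 0.34, adjusted p = 0.00216). In the glycogen list, 6 of 17 tested members of 19 were called lower and 1 higher. Stbd1, a glycogen-binding protein, was lower by -3.44 (SE 0.40), the phosphorylase kinase subunits Phka1 and Phkg1 by -2.07 (SE 0.12) and -2.0 (SE 0.29), and phosphoglucomutase Pgm1 by -1.92 (SE 0.14). Ppp1r3d, a glycogen-targeting phosphatase subunit whose KO TA mean was near the floor, was the one called higher, and lost the call without KO soleus replicate 1 or 2 or KO TA replicate 2 or 3.

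Few genes of the respiratory chain were called in KO. Of 54 tested respiratory chain and ATP synthase genes of 56, 1 was called higher (Ndufb3, 0.64, SE 0.10) and 1 lower (Uqcrc1, -0.45, SE 0.11), a share below the background of 8.96%. The median was -0.02, equal to that of all genes. Uqcrc1 lost its call when any KO array was left out. Of 20 tested tricarboxylic acid cycle genes of 21, Idh2, the mitochondrial NADP-dependent isocitrate dehydrogenase, was higher at 11.57 ± 0.37 against 8.96 ± 0.09 (SD, n = 3), without overlap (2.61, SE 0.30, adjusted p = 0.000854). Got1, an aspartate aminotransferase, was lower by -0.71 (SE 0.14), without a call when KO soleus replicate 1 or KO TA replicate 2 was left out. The tricarboxylic acid cycle list thus had 1 call higher and 1 lower, against a background of 8.96% in either direction. With the replicate block 1 gene of that list was called higher and 3 lower.

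Fatty acid genes were higher in KO soleus in part. Of 32 tested members of 36, 6 were called higher and 0 lower (median 0.21, 26 above 0). Lpl, lipoprotein lipase, read 14.75, 14.86 and 14.74 in soleus and 13.29, 13.71 and 13.57 in TA (1.26, SE 0.14, adjusted p = 0.000759). Cd36, a fatty acid transporter, was higher by 0.93 (SE 0.17), Fabp3, the heart-type fatty acid binding protein, by 0.94 (SE 0.22), and Etfa, an electron carrier subunit of fatty acid oxidation, by 0.62 (SE 0.16). Lpl and Cd36 kept the call under each omission of a KO array, Fabp3 only without KO TA replicate 2 and Etfa only without KO soleus replicate 3. Fitted on the KO arrays alone, Cd36 missed the threshold (adjusted p = 0.0578). Another probe set of Cd36 gave 0.94 and was called (adjusted p = 0.0454), and a further one gave 0.69 and was not (adjusted p = 0.325). The other called members were Etfdh (0.58) and Acadm (0.44). With the replicate block 8 were called higher and 2 lower, and without KO soleus replicate 1, KO soleus replicate 2, KO TA replicate 1 or KO TA replicate 3 the count was 2. In WT, 19 of the 32 were called higher (median 0.82). By limma's genotype test 0 of the 32 passed (smallest adjusted p = 0.351, Acaa2), while 11 had an unadjusted p under 0.05, all 11 with the smaller difference in KO, against 5.71% of all genes.

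Among genes of oxygen and phosphate energy, 2 of 16 tested members of 17 were called higher and 2 lower. Ampd3, an AMP deaminase, was higher by 2.51 (SE 0.29) and myoglobin, Mb, by 0.50 (SE 0.08). Car14, a membrane carbonic anhydrase, was lower by -1.73 (SE 0.23) and the adenylate kinase Ak1 by -1.02 (SE 0.23). Ak1 lost its call without any KO array other than soleus replicate 3. With the replicate block the list gave 4 calls higher and 3 lower.

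**Figure D3:**
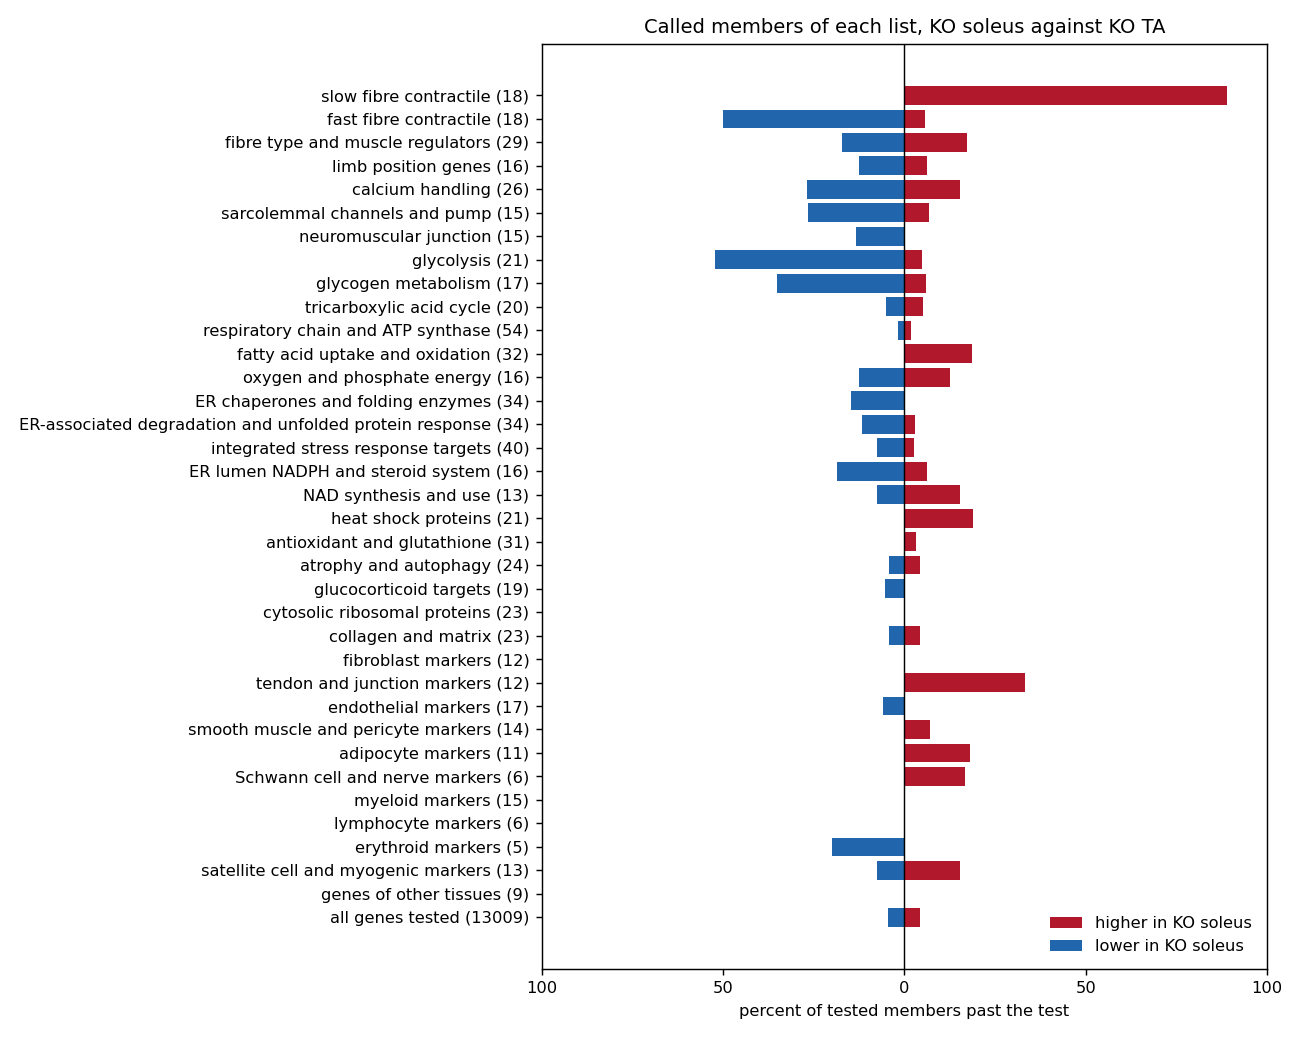
Bars give, for each of 35 gene lists, the percent of tested members called higher (red, right) or lower (blue, left) in KO soleus than in KO TA, with the number tested in parentheses and all 13009 genes in the last row. The slow contractile list stands highest on the right, the glycolysis list (11 of 21) and the fast contractile list (9 of 18) reach farthest left, and the respiratory chain list has 1 call each way among 54.

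Part of the ER folding machinery was lower in KO soleus than in KO TA. Of 34 tested ER chaperones and folding enzymes of 36, 5 were called lower and 0 higher against a background of 4.61% lower calls, with a median of -0.27 and 8 members above 0. Calr, calreticulin, the lectin chaperone and calcium store of the ER, read 12.14, 12.23 and 13.06 in soleus and 13.78, 14.08 and 13.60 in TA. The groups did not overlap (-1.35, SE 0.24, adjusted p = 0.00742), and 2 further probe sets gave -1.47 and -1.46, both called. Sdf2l1, a partner of the chaperone Hspa5, read 3.69, 4.09 and 5.09 against 5.15, 6.44 and 6.01 (-1.58, SE 0.37, adjusted p = 0.027), close to the floor in soleus. P4hb, the main protein disulfide isomerase, read 11.61, 11.46 and 11.98 against 12.16, 12.30 and 12.40 (-0.60, SE 0.15, adjusted p = 0.0331). Its relatives Erp44 and Txndc5 were lower by -0.88 (SE 0.17) and -0.77 (SE 0.18). The second probe set of Txndc5 was called too (-1.08), whereas that of Erp44 was not (-0.47, adjusted p = 0.243).

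The array numbered 3 stood nearest to TA in this list. The mean over the 34 genes was 8.68, 8.79 and 9.17 in KO soleus and 9.09, 9.38 and 9.22 in KO TA. Without KO soleus replicate 3, 9 genes were called lower, and without all arrays numbered 3, 8. Without KO soleus replicate 1, KO soleus replicate 2, KO TA replicate 2 or KO TA replicate 3, 2 were. Calr and Erp44 kept their calls under each of the 6 omissions, but on the KO arrays alone only Erp44 of the 5 was called (adjusted p = 0.0301), while Calr (0.0554), P4hb (0.0949), Txndc5 (0.128) and Sdf2l1 (0.133) missed the threshold. Sdf2l1 and Txndc5 lost theirs without KO soleus replicate 1 or 2 or KO TA replicate 2 or 3, and P4hb under all omissions except that of KO soleus replicate 3.

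In WT the same 34 genes gave 0 calls in either direction by limma (5 at an unadjusted p under 0.05, 2 of them lower, against 27.1% of all genes) and a median of 0.10. In KO, 12 had an unadjusted p under 0.05, all 12 lower in soleus, against 24% of all genes. The WT differences of Calr and P4hb were -0.18 and 0.27. By the genotype test 0 of the 34 were past the threshold (smallest adjusted p = 0.433, P4hb). In that test 7 had an unadjusted p under 0.05, all 7 with the more negative difference in KO, against 5.71% of all genes. A muscle difference of ER chaperones that belongs to the KO alone was thus not shown. The WT means over the 34 genes were 8.62, 8.36 and 8.48 in soleus and 8.43, 8.38 and 8.27 in TA, below every KO mean of the same list.

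ER chaperone promoters carry an element through which the unfolded protein response acts, the ER stress response element, with the letters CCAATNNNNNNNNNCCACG. Read on both strands of the RefSeq windows (GRCm38.p6), it was present for 37 of 27025 genes (0.137%) and for 8 of the 29 tested ER chaperone genes with an entry. These sites are shown because they set the called gene Calr beside its uncalled neighbours in the pathway. Capitals mark the fixed letters, each site is written in the orientation of the element, and Hsp90b1 has 2.
Calr: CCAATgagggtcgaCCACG
Canx: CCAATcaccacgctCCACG
Creld2: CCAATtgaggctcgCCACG
Dnajc3: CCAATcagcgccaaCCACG
Ero1b: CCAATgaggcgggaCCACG
Hsp90b1: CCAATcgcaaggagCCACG
Hsp90b1: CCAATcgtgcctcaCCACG
Hspa5: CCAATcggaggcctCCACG
Pdia6: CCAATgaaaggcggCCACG

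Of these 8 genes Calr alone was called, and the KO differences of the others ran from -0.73 for Pdia6 (adjusted p = 0.133) to 0.06 for Canx (adjusted p = 0.928). Hspa5, the central ER chaperone also called BiP, differed by -0.26 (SE 0.33, adjusted p = 0.706). The element letters were not in these windows of Sdf2l1, Erp44, Txndc5 or P4hb. In the Calr promoter, at chr8:84846932-84847181 on the minus strand, the site starts at position -162 and runs on the opposite strand, so that the capitals below read it in reverse.
Calr promoter: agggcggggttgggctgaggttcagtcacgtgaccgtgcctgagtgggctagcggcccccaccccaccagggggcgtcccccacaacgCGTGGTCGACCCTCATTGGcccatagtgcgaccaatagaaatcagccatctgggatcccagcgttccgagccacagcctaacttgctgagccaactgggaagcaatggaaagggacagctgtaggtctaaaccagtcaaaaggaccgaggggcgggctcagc

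Genes of ER-associated degradation and of the unfolded protein response were mixed. Of 34 tested members of 37, 1 was called higher and 4 lower (median -0.10), against a background of 4.34% and 4.61%. With the replicate block the counts were 2 and 7. Casp12, an ER-resident caspase, read 7.99, 7.18 and 7.01 in KO soleus and 4.92, 3.29 and 5.11 in KO TA (2.95, SE 0.43, adjusted p = 0.00298). Its second probe set gave 2.80 and was called, and the call held under each omission of a KO array. In WT, Casp12 read 8.30, 8.40 and 7.94 in soleus and 7.80, 7.71 and 7.78 in TA, so that KO TA was the low group of the 4. The genotype test did not pass (adjusted p = 0.465). Sec61b, a subunit of the ER translocation channel, was lower in KO soleus by -0.90 (SE 0.17), Tmbim6, an ER calcium leak protein, by -0.64 (SE 0.17), and Ube2j1, an ER ubiquitin-conjugating enzyme, by -0.64 (SE 0.16).

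Only Sec61b of those 3 kept its call under every omission: Tmbim6 lost it without any of the 6 KO arrays, and Ube2j1 without KO soleus replicate 1 or 3 or KO TA replicate 2 or 3. The other probe set of Ube2j1 gave 0.10 (adjusted p = 0.852). Derl3, a degradation channel component, was at the floor in soleus (2.57 to 2.59) and at 3.66, 6.00 and 3.99 in TA. KO TA replicate 2 alone lay above the floor mark of 4, so no bound is given, and the gene lost the call without any 1 soleus array. The list had 2 calls without KO soleus replicate 1, and 3 without KO soleus replicate 2, KO TA replicate 2 or KO TA replicate 3.

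The array numbered 3 stood high in the integrated stress response list. The mean over 40 tested genes of 44 was 7.76, 7.85 and 8.82 in KO soleus and 8.03, 8.52 and 8.84 in KO TA, and replicate 3 was the highest array in all 4 groups. Of the 40, 1 was called higher and 3 lower (median -0.35, 13 above 0). Over all genes 8.96% were called in either direction and 42.9% lay above 0. With the replicate block 0 were called higher and 11 lower. Aldh18a1, the first enzyme of proline synthesis, read 7.27, 7.04 and 8.16 in soleus and 8.24, 9.16 and 9.46 in TA (-1.46, SE 0.34, adjusted p = 0.0272). Of its 4 other probe sets, 1 was called (-1.20, adjusted p = 0.0497) and 3 were not (-1.02, -0.73 and -0.20). Gpt2, the mitochondrial alanine aminotransferase, read 7.77, 7.41 and 8.35 against 10.33, 10.05 and 10.87 (-2.57, SE 0.47, adjusted p = 0.00911), and its WT difference was -3.34. Psph, the last enzyme of serine synthesis, was lower by -0.58 (SE 0.15) and was not called with the block.

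Atf3, a stress-induced transcription factor, was the member called higher, at 7.46, 6.60 and 10.02 in soleus and 4.69, 5.95 and 5.25 in TA (2.73, SE 0.73, adjusted p = 0.0454). KO soleus replicate 3 lay far above the other soleus arrays, and Atf3 lost its call with the replicate block. Atf4 itself differed by -0.47 (adjusted p = 0.141). Among the 6 omissions, Atf3 was called only without KO soleus replicate 2 or KO soleus replicate 3, Psph only without KO soleus replicate 2, and Aldh18a1 only without KO soleus replicate 3 or KO TA replicate 1. Gpt2 was called under each. The list count was 1 without KO soleus replicate 1, KO TA replicate 2 or KO TA replicate 3, 2 without KO TA replicate 1, and 8 without KO soleus replicate 3 (1 higher, 7 lower).

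**Figure D4:**
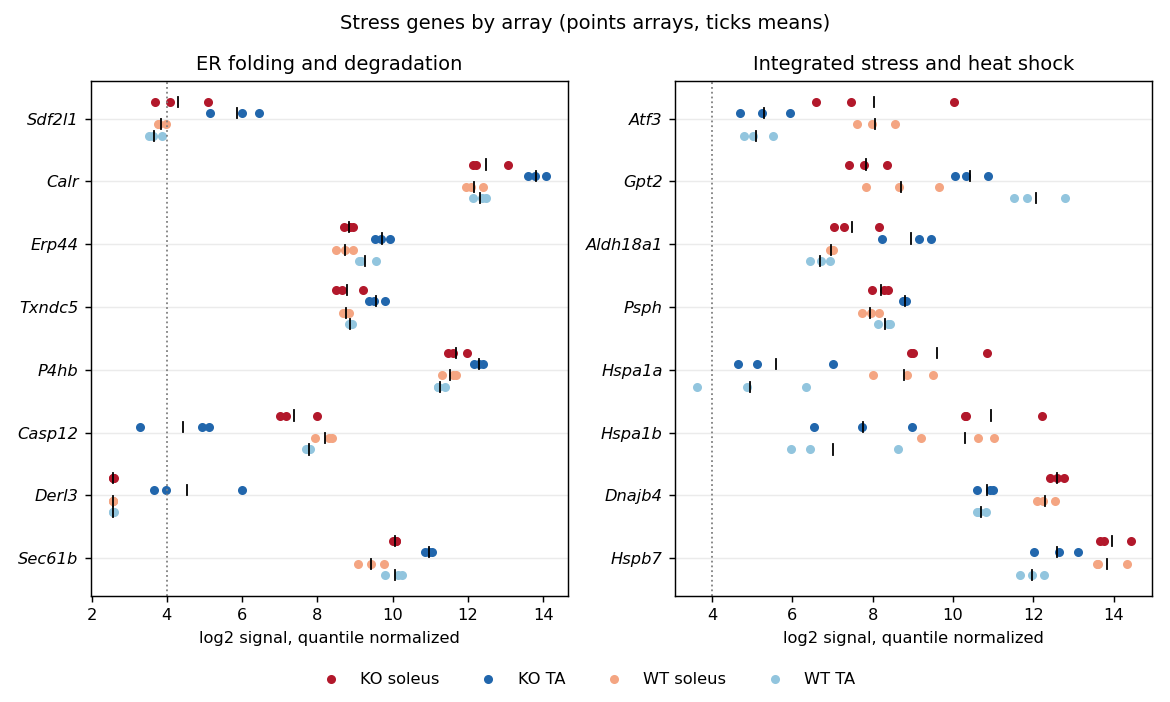
The log2 signal of 16 stress genes is shown on each array, with ER folding and degradation genes on the left and integrated stress and heat shock genes on the right; colours are the 4 groups, black ticks are group means, and the dotted line at 4 marks the floor. Calr, Aldh18a1 and P4hb are highest in KO TA, Casp12 is lowest in KO TA, and Hspa1a, Hspa1b, Dnajb4 and Hspb7 are higher in soleus of both genotypes.

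Heat shock proteins of the cytosol and mitochondria formed 1 list. Of 21 tested members of 23, 4 were called higher in KO soleus and 0 lower, against a background of 4.34% higher calls (median 0.27, 16 above 0), and 8 and 0 with the replicate block. Hspa1a, an inducible chaperone of the Hsp70 family, read 8.99, 8.94 and 10.86 in soleus and 4.65, 5.11 and 7.01 in TA (4.01, SE 0.84, adjusted p = 0.0166). In both muscles the array numbered 3 was the highest, and the groups did not overlap. Its near-identical neighbour Hspa1b differed by 3.19 (SE 0.87, adjusted p = 0.0484), and signal of the pair cannot be separated. The 2 other probe sets of Hspa1b gave 3.19 and 3.22 and were not called. Dnajb4, a co-chaperone, read 12.58, 12.42 and 12.77 against 10.61, 10.91 and 10.99 (1.75, SE 0.15, adjusted p = 0.000117). Hspb7, a small heat shock protein of muscle, was higher by 1.36 (SE 0.32). The other probe sets of these 2 genes were not called. They gave 1.49 for Dnajb4 (adjusted p = 0.114), and 1.13 and 0.70 for Hspb7 (adjusted p = 0.119 and 0.688). Dnajb4 alone of the 4 kept its call under each omission. Hspa1a lost it without KO TA replicate 1 or 2, and Hspa1b and Hspb7 under all except that of KO TA replicate 3. The list count was 1 without KO TA replicate 2, and 2 without any 1 soleus array or KO TA replicate 1, the last with 1 gene higher and 1 lower. In WT, 6 of the 21 were called higher.

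Heat shock factors bind repeats of a short element, whose core GAANNTTC was found on either strand for 11 of the 16 tested heat shock genes with an entry and for 9.04% of all 27025 genes. The Hspa1a promoter is shown as that of the list's largest difference. It lies at chr17:34972157-34972406 on the minus strand, and its match, in capitals, starts at position -104.
Hspa1a: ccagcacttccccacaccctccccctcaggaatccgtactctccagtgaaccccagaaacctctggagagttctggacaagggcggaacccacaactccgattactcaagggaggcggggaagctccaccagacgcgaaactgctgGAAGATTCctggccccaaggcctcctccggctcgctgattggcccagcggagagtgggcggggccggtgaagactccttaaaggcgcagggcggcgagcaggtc

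The ER NADPH system, in which H6pd itself works, had 1 member called higher and 3 lower of 16 tested (19 listed), and 2 and 5 with the replicate block. Slc37a4, the transporter that brings glucose-6-phosphate into the ER, read 8.49, 8.55 and 7.76 in KO soleus and 10.99, 10.24 and 10.11 in KO TA (-2.18, SE 0.33, adjusted p = 0.00324). G6pc3, a phosphatase of that sugar, was lower by -1.10 (SE 0.18), and Rpia, of the pentose phosphate pathway, by -1.18 (SE 0.20). Nnt, a mitochondrial enzyme that makes NADPH, was higher at 13.44, 13.37 and 13.53 against 11.95, 11.99 and 11.93 (1.48, SE 0.16, adjusted p = 0.000534). The steroid reductase Hsd11b1 differed by 0.16 (adjusted p = 0.872). The WT differences of Slc37a4, G6pc3, Rpia and Nnt had the same sign, -3.08, -0.74, -1.05 and 2.06. Of 13 tested NAD genes of 16, Nnmt (1.13) and Sirt1 (0.57) were called higher and Nmnat3 (-0.86) lower, and each lost the call under at least 4 of the 6 omissions. Nmnat3 did so under all 6, Sirt1 without any except KO TA replicate 2, and Nnmt without KO soleus replicate 1 or 3 or KO TA replicate 2 or 3.

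Other stress and catabolic lists held few calls. Of 31 tested antioxidant genes of 34, the glutathione transferase Mgst1 was called, at 12.11, 11.95 and 12.06 in KO soleus and 9.82, 10.28 and 10.89 in KO TA (1.71, SE 0.25, adjusted p = 0.00266). Of 24 tested atrophy and autophagy genes of 28, Bnip3, a mitophagy receptor, was higher by 1.49 (SE 0.27) and Gadd45a, a growth arrest gene, lower by -1.26 (SE 0.19). The ubiquitin ligases of atrophy were among the uncalled. Of 19 tested glucocorticoid targets of 20, Sgk1, a kinase, was lower by -0.93 (SE 0.23), and was called only without KO soleus replicate 2 among the omissions. With the replicate block the antioxidant list gave 3 calls higher and 1 lower, the atrophy list 2 and 4, and the glucocorticoid list 3 and 2. Of 23 tested ribosomal protein genes of 38, 0 were called by limma in KO (2 at an unadjusted p under 0.05, and 2 called with the block). The most distant, Rpl12, read 5.49, 5.22 and 4.23 in KO soleus and 4.22, 4.24 and 3.39 in KO TA. Its difference of 1.03 (adjusted p = 0.153) is limited by the floor, since the KO TA mean was under 4.

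The 5 genes that passed the genotype test include 2, Arv1 and Bhlha15, whose signals cannot be read above the floor. 2310065F04Rik, a non-coding RNA also named linc-Myh that RefSeq places between Myh3 and Myh2, lay at the floor on all KO arrays, at 3.15, 3.12 and 3.14 in soleus and 3.53, 3.10 and 3.15 in TA. In WT it read 3.64, 4.01 and 3.57 in soleus and 9.14, 9.42 and 9.70 in TA, a WT difference of -5.67. Expressed as a bound, WT soleus was at least 5.42 log2 units below WT TA. The KO difference was -0.12 (SE 0.18, adjusted p = 0.741), and the 2 differences differed by 5.55 (SE 0.25, adjusted p = 1.04e-05). The 2 muscles lay far apart in WT and overlapped in KO. The 250 bases before its start site, at chr11:67120081-67120330 on the minus strand (GRCm38.p6), are shown because no other gene changed its muscle difference as much. None of the elements named here, nor MEF3, TCAGGTTTC, an element of muscle promoters present for 0.511% of all 27025 genes, is among the letters.
2310065F04Rik: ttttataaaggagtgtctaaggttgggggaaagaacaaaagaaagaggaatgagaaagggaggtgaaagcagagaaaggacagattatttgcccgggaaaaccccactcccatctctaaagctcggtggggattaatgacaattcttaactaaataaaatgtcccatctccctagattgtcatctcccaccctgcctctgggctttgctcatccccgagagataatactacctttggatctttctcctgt

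Mss51, a mitochondrial protein of fast muscle, kept part of its difference in KO. It read 5.12, 5.17 and 5.17 in KO soleus and 7.86, 6.77 and 6.98 in KO TA (-2.05, SE 0.31, adjusted p = 0.00353). In WT it read 5.13, 5.23 and 5.23 in soleus and 10.21, 11.21 and 11.17 in TA (-5.67). The genotype test gave 3.61 (SE 0.44, adjusted p = 0.0289). Prima1, which anchors acetylcholinesterase at the membrane, read 3.68, 3.75 and 3.74 in KO soleus, near the floor. In KO TA it read 5.0, 4.01 and 3.80, with a mean just above the floor mark. In WT TA it stood at 8.05, 7.51 and 8.53 against 3.72, 4.01 and 3.96 in WT soleus, so that the genotype test gave 3.59 (SE 0.45, adjusted p = 0.0289). Both genes were highest in WT TA. The genotype call of Mss51 was lost under 14 of 23 alternatives and that of Prima1 under 15 of 22, among them median centring (adjusted p = 0.0552 and 0.0618) and the omission of any 1 soleus array, with adjusted p up to 0.385 and 0.253 without the arrays numbered 3.

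The other 2 passed in the opposite direction at signals that cannot be told from the floor. Bhlha15, also called Mist1, a transcription factor of secretory cells, read 2.52, 2.50 and 2.52 in KO soleus and 4.34, 4.04 and 3.69 in KO TA. Its test passed (adjusted p = 8.55e-05), but the KO TA mean of 4.02 was itself at the floor mark, so the bound was only 0.02 log2 units. On all 6 WT arrays it lay between 2.49 and 2.54, and the genotype test gave -1.50 (SE 0.17, adjusted p = 0.0223), a size set by values near the floor. Arv1, an ER lipid protein, read 3.09, 3.07 and 3.08 in KO soleus and 3.60, 3.55 and 3.67 in KO TA, with WT arrays from 2.88 to 3.09 (genotype test -0.61, SE 0.06, adjusted p = 0.0116). All these Arv1 values are under the floor mark. With the replicate block within genotype 3 genes passed, of which 2310065F04Rik alone was among the 5; Mss51 had an adjusted p of 0.125, Prima1 of 0.174, Bhlha15 of 0.119 and Arv1 of 0.104.

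**Figure D5:**
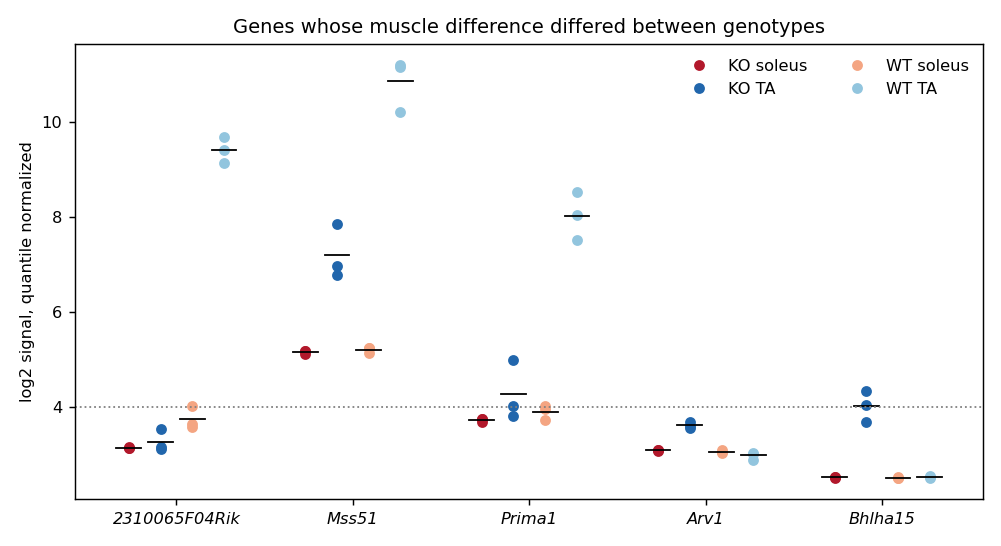
The log2 signal of the 5 genes past the genotype test is shown for each array of the 4 groups, with black lines at group means and a dotted line at 4, the mark for the floor. 2310065F04Rik and Prima1 lie near or below the line in all groups except WT TA, Mss51 is highest in WT TA and intermediate in KO TA, and Bhlha15 and Arv1 lie near or below the line in all groups.

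Markers of other cell types were compared because the muscles may differ in composition. Of 12 tendon and junction markers, all tested, 4 were called higher in KO soleus and 0 lower, with a median of 1.12 and all 12 above 0. Comp, a cartilage and tendon matrix protein, read 8.66, 8.72 and 9.58 in soleus and 7.43, 6.57 and 7.87 in TA (1.70, SE 0.39, adjusted p = 0.0248). Col22a1, a collagen of the myotendinous junction, was higher by 2.17 (SE 0.55), Chodl by 1.48 (SE 0.25) and Thbs4, a tendon thrombospondin, by 1.30 (SE 0.30). The summed linear signal of the list was 13744 to 21008 in KO soleus and 6732 to 15226 in KO TA, ranges that overlap. Chodl alone kept its call under each omission, and the count was 1 without KO soleus replicate 3 and 2 without KO soleus replicate 1, KO TA replicate 2 or KO TA replicate 3. Of 23 tested collagen and matrix genes of 24, Fn1 was called higher (1.60) and Col4a1 lower (-0.38), and 4 and 2 were with the block. Fn1 lost the call without KO soleus replicate 1 or 3 or KO TA replicate 1 or 2, and Col4a1 without any KO array. The part of tendon in the muscle differences was not tested.

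Some fat markers were also higher in KO soleus. Of 11 tested adipocyte markers of 15, 2 were called, Scd1, a fatty acid desaturase, at 12.68, 10.20 and 11.93 in soleus against 9.27, 8.08 and 8.0 in TA (3.15, SE 0.77, adjusted p = 0.0332), and Dgat2, of triglyceride synthesis (1.48, SE 0.29). The summed signal was 26024 to 40542 in soleus and 19164 to 22692 in TA. Scd1 kept its call only without KO soleus replicate 2 or KO TA replicate 1. These markers stand beside the fatty acid genes above, and their part in that result was not tested.

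Vessel, nerve and blood cell markers gave few calls. Of 17 tested endothelial markers of 18, Robo4 was lower (-0.63), without a call when any KO array was left out or with the block. The summed signal of the list was 12173 to 13181 in KO soleus and 16061 to 16433 in KO TA, without overlap. In WT it was 12550 to 13876 in soleus and 11788 to 14181 in TA, ranges that overlap. There 3 of the 17 were called higher in soleus and 0 lower. By the genotype test 0 of the 17 passed (smallest adjusted p = 0.817, Pecam1). Of 14 smooth muscle and pericyte markers Cspg4 was higher (1.21), but its second probe set gave 0.01, and the call held only without KO soleus replicate 2. Of 6 tested Schwann cell and nerve markers of 13, Pmp22 was higher (1.07), a call lost without KO soleus replicate 1 or 3 or KO TA replicate 2 or 3. Of 5 tested erythroid markers of 12, Bpgm, which red and other cells share, was lower (-1.39). Of 12 fibroblast, 15 myeloid and 6 lymphocyte markers tested, 0 were called by limma (2, 0 and 1 at an unadjusted p under 0.05), and the single genes farthest apart were Pi16 (0.99), Clec3b (-1.07), Cd68 (1.31) and Ighm (-1.01). Cd68 was highest on KO soleus replicate 3, at 5.56, 6.39 and 9.68. Of 9 tested genes of other tissues of 20, 0 were called by limma and 0 had an unadjusted p under 0.05.

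Of 13 tested satellite cell and myogenic markers of 16, 2 were called higher and 1 lower, among them Myf5 and Myod1 above. Myh3, the embryonic myosin heavy chain, read 11.72 ± 0.26 in KO soleus and 7.59 ± 0.95 in KO TA (SD, n = 3), without overlap (4.14, SE 0.56, adjusted p = 0.00194), a ratio of 17.6, and its WT difference was 2.18. The genotype test did not pass for Myh3 (adjusted p = 0.824). The call held under each omission of a KO array.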

How the data were processed

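The deposited table holds 1 log2 signal per probe set and array (45101 probe sets, 12 Affymetrix arrays, 3 per group), made by the authors with MAS5 per the submitters' processing notes; other steps are not given in the sources used here. The scanner files were not used here. Trimmed means of the arrays differed 1.11-fold, so the table was quantile normalised. Probe sets above the 40th percentile of the array (log2 2.76 or more) on at least 3 arrays were kept (27559). In GEO's platform annotation 34945 probe sets carry 1 symbol; 932 carry several and 9160 carry none, and these were left out together with 64 controls. The kept probe set of highest mean stood for its gene, which gave 13009 genes, 5643 of them with other kept probe sets.

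The 4 group means were fitted with limma 3.58.1 in R 4.3.3 (moderated test with a variance trend, all 12 arrays, Benjamini-Hochberg over all genes, two-sided). The contrasts were KO soleus minus KO TA, the same in WT, and their difference. The fit was tested on simulated data. With 3 arrays a group, an exact permutation test of 1 value cannot give a p under 0.1, so none was run. Precision is limited by the number of arrays. The main fit held no replicate block. Only the block alternatives took equal numbers as pairs. The numbers come from the titles, which do not state that arrays of equal number form pairs. Deviations from the group means correlated at 0.49, 0.43 and 0.59 between KO soleus and KO TA of equal number, against -0.44 to 0.10 for unequal numbers. Equal numbers also correlated between KO and WT, which are different mice, at 0.43, 0.09 and 0.61 in soleus and 0.35, 0.16 and 0.56 in TA. Whether equal numbers share a mouse was not tested.

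Named genes are the 4 markers, H6pd, the members of 12 isoform pairs, the 12 highest and 12 lowest called genes without overlap, genes past the genotype test, and up to 4 called members a list and direction (8 for the 3 ER and integrated stress lists), or the 2 most distant where none was called. Hspa5, Canx, Pdia6, Atf4, Hsd11b1, Fhl1, Myl6b, Aldoa, Etfdh and Acadm fall outside this rule and were chosen after their values were seen. The members and lists were chosen with earlier results of these data known. Alternatives changed the normalisation, the filter, the probe set rule, the scale (a pseudocount of 16), the variance model, the arrays and the replicate block.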

Additional observations from a re-analysis of the deposited data

Results flagged for a closer look

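In a direct test of the soleus minus TA difference in KO against that in WT, 5 genes passed. For 3 of them the difference was smaller in size in KO: -0.12 against -5.67 for 2310065F04Rik, -2.05 against -5.67 for Mss51 and -0.55 against -4.13 for Prima1, so that KO minus WT was 5.55, 3.61 and 3.59. The soleus means of 2310065F04Rik and Prima1 lay near the floor in both genotypes, as did the KO TA mean of 2310065F04Rik. The sizes given for 2310065F04Rik and Prima1 are therefore limited by the floor. For Bhlha15 (-1.50) and Arv1 (-0.61) the signals cannot be read above the floor, and these sizes are not interpretable as fold changes. 2310065F04Rik passed under every alternative that gave it a value. The other 4 did not pass with the replicate block within genotype, and Mss51 lost the call under 14 of 23 alternatives and Prima1 under 15 of 22.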

How the results depend on the processing

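Of the 119 named genes called in KO, 0 changed direction under any alternative and 66 stayed called under all of them. Values that were not called changed sign for 2310065F04Rik in KO (0.012 without KO TA replicate 1, with omissions from -0.20 to 0.012) and for Ccl6 in KO (-0.0037 without KO TA replicate 2, with omissions up to 1.62). The KO count of 1165 became 2000 with the replicate block within genotype, 2194 with the block over both genotypes and 631 on the KO arrays alone. Leaving out 1 array gave 585 to 1072 (585 without KO soleus replicate 1, 610 without KO TA replicate 2, 758 without KO TA replicate 3). The pairing by number cost 3 named calls (Atf3, Psph and Robo4). Leaving out all arrays numbered 3 gave 1069 calls, 722 of them shared. The WT count of 1392 became 2800 with array weights, 706 on the WT arrays alone and 2369 with the block over both genotypes, and 699 to 1281 with 1 array left out (699 without WT soleus replicate 1, 758 without WT soleus replicate 2, 844 without WT TA replicate 2, 853 without WT TA replicate 1).

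The count of 5 past the genotype test was 3 after median centring or without a filter, 1 with a mean log2 above 5 or without a variance trend, 10 with array weights, 3 with the replicate block within genotype and 8 without the arrays numbered 3. With 1 array left out it ran from 1 to 20: 1 without WT soleus replicate 3, 3 without WT soleus replicate 2, KO TA replicate 3 or WT TA replicate 1, 8 without WT soleus replicate 1, 10 without KO TA replicate 2, 13 without WT TA replicate 3 and 20 without KO TA replicate 1. Fits on fewer arrays have fewer degrees of freedom; the cause of the other changes was not tested. Signals under log2 4 cannot be told from the floor, which limits, among others, the values of Bhlha15, Arv1, Ybx2, BC023105, Derl3, 2310065F04Rik, Prima1, Myl6b and Rpl12.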

Other observations

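Ighm, the heavy chain of immunoglobulin M, read 6.85, 5.85 and 5.98 in KO soleus and 7.97, 7.47 and 6.28 in KO TA, ranges that overlapped. WT TA stood at 10.57, 10.65 and 11.03 and WT soleus at 6.01, 6.46 and 5.11. The WT difference was -4.89 and the KO difference -1.01, and the genotype test did not pass (adjusted p = 0.188). These values come from the brightest probe set of Ighm. Its other kept probe sets were dim, with KO differences of -0.07, 0.15, 0.02 and -0.07. On them the KO difference minus the WT difference was 0.08, 2.27, 0.06 and -0.02, and none passed either test. Got1 was lower in KO soleus by -0.71, whereas its WT difference was 0.44 and did not pass the test (adjusted p = 0.0768). For Got1 the genotype test did not pass either (adjusted p = 0.193).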
